A study of Arabidopsis thaliana with 66 samples.

Results

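The 8 defence genes described here are ALD1 (AT2G13810), FMO1 (AT1G19250), PAD3 (AT3G26830), PAD4 (AT3G52430), CYP71A12 (AT2G30750), CYP71A13 (AT2G30770), PR1 (AT2G14610) and PDF2.1 (AT2G02120), out of 27313 loci counted in Arabidopsis roots. They were taken by locus identifier, for their roles in camalexin, pipecolate and salicylate defence and by no threshold on a measured value, with earlier results of these data known. Reads were counted in 66 RNA-seq libraries that form 22 groups of 3. Of the 8 genes, 7 had enough reads to be tested, and PR1 did not.

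The wild type was Col-0. It was compared with N8507, N8508 and N9416, lines known here only by stock number, which the submitters call mutants without naming the mutated genes in their labels. The exposure lasted 14 days. Roots were untreated (mock), on medium lacking phosphate (-P), or on that medium with nano-hydroxyapatite, a particulate calcium phosphate (nanoP). The -P and nanoP media were also used with thorium (-P+Th and nanoP+Th), and mock with thorium (mock+Th) was analysed in N8507 and N9416. The labels give no plant number per library and do not say that the 3 libraries of a group came from separate cultures, so the p-values measure the spread between these samples, which may be technical.

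Camalexin is the main indole phytoalexin of Arabidopsis. CYP79B2 and CYP79B3 turn tryptophan into indole-3-acetaldoxime, CYP71A12 and CYP71A13 turn that into indole-3-acetonitrile, and PAD3 (CYP71B15) carries out the closing steps. ALD1, an aminotransferase, starts pipecolate synthesis from lysine, and FMO1 hydroxylates pipecolate to the mobile signal N-hydroxypipecolate. PAD4 is a lipase-like partner of EDS1 that acts upstream of salicylate accumulation, PR1 is the classical marker of the salicylate response, and PDF2.1 encodes a plant defensin, a small cysteine-rich secreted peptide.

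Assigned reads per library ranged from 9.4 to 16.76 M (M, 1e6 reads). All 10 listed root markers had reads in every group, with summed levels of 1004 to 4608 counts per 1e6 assigned reads (CPM) per library. Summed levels of the 9 green tissue markers ran from 0.535 to 52.2 CPM, and RBCS1B, a small subunit of Rubisco, had no reads in any of the groups. Levels are CPM after normalization over all 66 libraries unless TPM, the length-corrected transcript abundance, is named. Col-0 and N8507 carry library numbers 128 to 160 and N8508 and N9416 numbers 193 to 225, so a difference of N8508 or N9416 from Col-0 cannot be told apart from one of library series.

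The 3 Col-0 -P+Th libraries stood apart from the other Col-0 libraries at PP2-A6, PP2-A8, DAR4 and CSA1. These loci had no reads in the other Col-0 libraries, and their summed level was 0.0828, 3.73 and 16.9 CPM in Col-0 -P+Th replicates 1, 2 and 3. In the lines the same sum lay between 143 and 633 CPM. The part that this plays in the results was not tested, and values that rest on Col-0 -P+Th are set beside those with only replicate 1 of that group, whose spread is then taken to be that of the other Col-0 groups.

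CYP71A12 and CYP71A13 lie close together on chromosome 2, with 2 annotated protein-coding genes between them, and their sequences show how far reads can be assigned to each. In RefSeq TAIR10.1 both are on the minus strand, at chr2:13099486-13101371 and chr2:13109909-13111988, and their coding sequences of 1494 bases are identical at 1350 positions (90.4%). The longest identical run is 59 bases. The models counted in the deposited files are 1512 bases long for both genes, so the annotations differ, while lengths were equal for the other 6 genes. The stretch from coding position 687 to 836 holds the fewest identical bases of any 150-base window, with 26 differences, shown in capitals:
CYP71A12: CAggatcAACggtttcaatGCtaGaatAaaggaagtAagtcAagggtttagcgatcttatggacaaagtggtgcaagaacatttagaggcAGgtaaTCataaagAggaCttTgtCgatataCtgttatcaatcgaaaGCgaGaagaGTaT
CYP71A13: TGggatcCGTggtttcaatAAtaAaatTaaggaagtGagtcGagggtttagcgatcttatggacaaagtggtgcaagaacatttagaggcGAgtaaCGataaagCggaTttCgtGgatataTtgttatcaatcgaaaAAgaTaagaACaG

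The share of CYP71A13 among the reads of both genes was not constant. It was 13% in Col-0 -P+Th (510 reads against 3425), 8.66% in N9416 mock+Th and 3.29% in N8507 -P+Th. In N8507 mock, -P, nanoP and nanoP+Th it was 0%, beside 215, 100, 304 and 270 reads of CYP71A12. How many reads of either gene were assigned to the other was not tested.

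The stretches of 250 bases before the annotated gene starts (RefSeq TAIR10.1) were searched on both strands for the W-box core TTGAC, the letters bound by WRKY factors, and for TGACG, those bound by TGA factors. CYP71A12, CYP71A13 and PDF2.1 each held 2 W-box cores and PR1 held 1, whereas ALD1, FMO1, PAD3 and PAD4 held none. The W-box core occurs in 44.9% of 27443 such windows and TGACG in 18.6%. The only TGACG among the 8 genes overlaps the W-box core farther from the start in CYP71A13. Windows are printed for the genes with 2 cores and for ALD1, the gene with the largest change among those with none, with W-box cores in capitals, in the order chr2:13101372-13101621 (minus strand), chr2:13111989-13112238 (minus), chr2:538000-538249 (plus) and chr2:5768167-5768416 (plus):
CYP71A12: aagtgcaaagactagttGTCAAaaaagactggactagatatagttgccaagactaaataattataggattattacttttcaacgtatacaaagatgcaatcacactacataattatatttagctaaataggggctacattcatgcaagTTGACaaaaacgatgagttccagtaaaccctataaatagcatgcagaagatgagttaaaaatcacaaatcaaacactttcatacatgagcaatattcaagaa
CYP71A13: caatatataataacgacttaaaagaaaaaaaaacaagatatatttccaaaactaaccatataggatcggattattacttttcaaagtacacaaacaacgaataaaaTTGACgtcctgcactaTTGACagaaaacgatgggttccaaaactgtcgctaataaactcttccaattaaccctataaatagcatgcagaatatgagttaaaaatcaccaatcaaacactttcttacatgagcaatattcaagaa
PDF2.1: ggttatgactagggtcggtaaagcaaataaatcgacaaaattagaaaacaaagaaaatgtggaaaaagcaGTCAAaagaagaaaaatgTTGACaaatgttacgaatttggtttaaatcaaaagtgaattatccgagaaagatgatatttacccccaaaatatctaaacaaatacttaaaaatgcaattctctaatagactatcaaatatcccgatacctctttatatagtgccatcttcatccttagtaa
ALD1: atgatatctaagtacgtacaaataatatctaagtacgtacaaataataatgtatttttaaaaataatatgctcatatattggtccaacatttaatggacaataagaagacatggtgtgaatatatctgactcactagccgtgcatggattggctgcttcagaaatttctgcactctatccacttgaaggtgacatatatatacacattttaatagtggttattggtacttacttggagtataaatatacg
A match of letters is a description of the window and not a sign that a factor binds there.

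On the TPM scale, which corrects for length, group means of the 8 genes covered very different ranges. PAD4 was the steadiest, between 42.9 TPM (N8507 nanoP+Th) and 227 TPM (N9416 -P), followed by FMO1, between 12.6 (N8507 nanoP+Th) and 79.1 TPM (N9416 -P). PDF2.1 ran from 5.91 TPM in Col-0 -P to 3214 TPM in N8507 -P+Th. CYP71A12 ran from 1.07 (N8507 -P) to 128 TPM (N8507 -P+Th), PAD3 from 0.324 (Col-0 nanoP) to 43.3 TPM (N8508 -P+Th), and ALD1 from 0.0593 (N9416 nanoP) to 36.2 TPM (Col-0 -P+Th). CYP71A13 reached 4.92 TPM at most, in Col-0 -P+Th. The highest group mean was that of a -P+Th group in ALD1, PAD3, CYP71A12, CYP71A13 and PDF2.1, and that of N9416 -P in PAD4 and FMO1. For PR1 it was that of N8507 -P+Th, which rests on 4 reads, all in replicate 1.

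**Figure D1:**
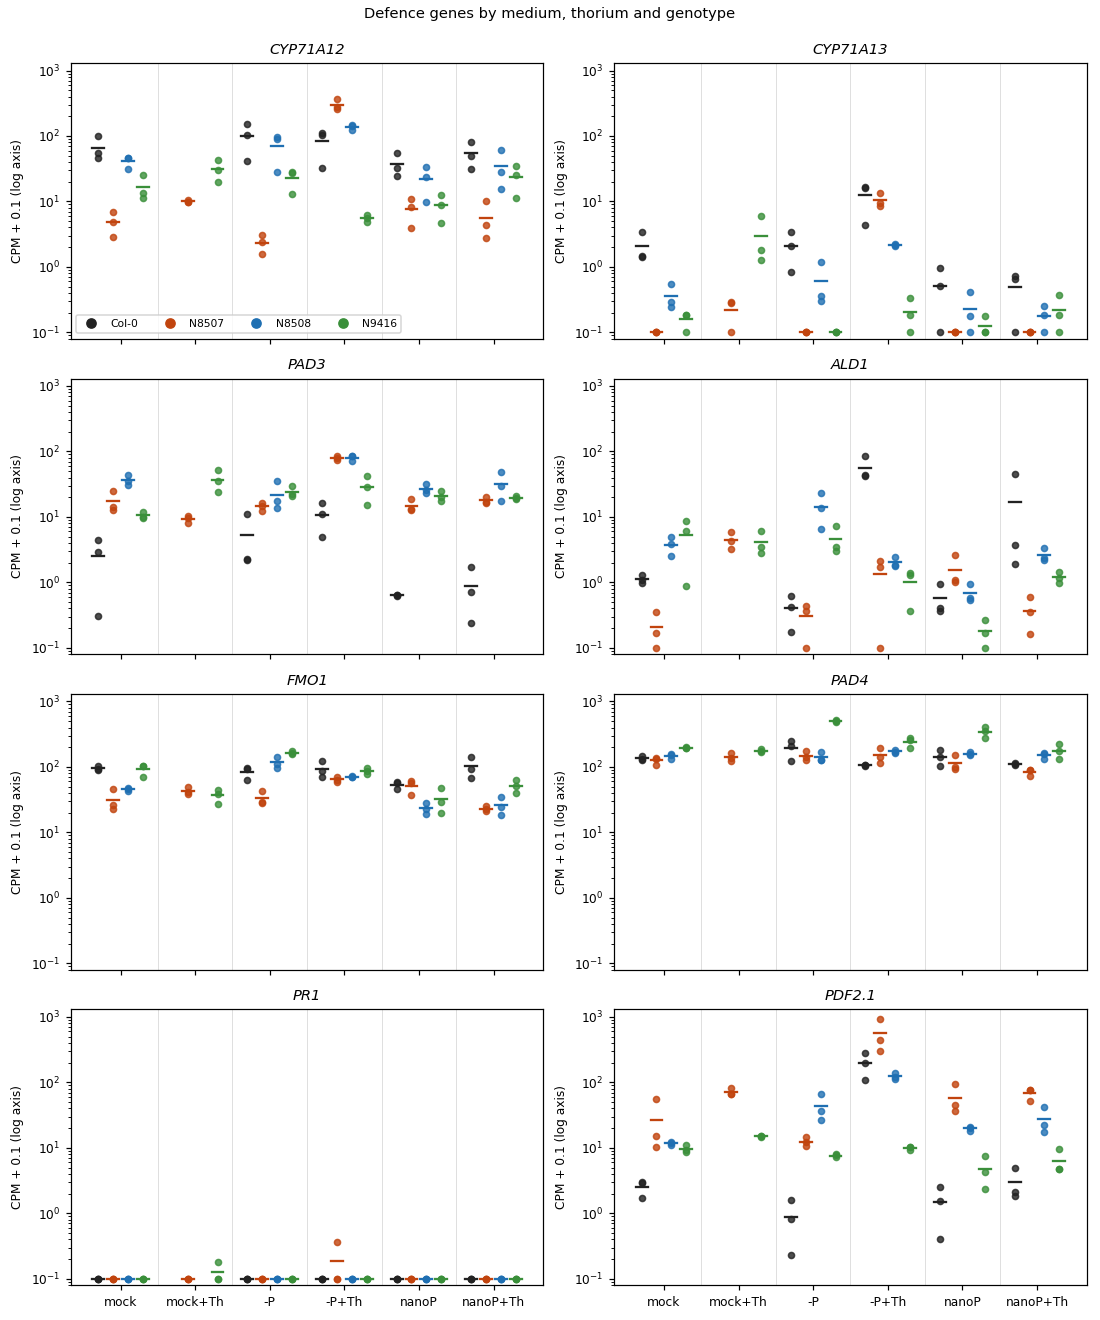
Level of each gene in every library (points) with the group mean (bars), as CPM plus 0.1 on a log axis, by treatment (x axis) and genotype (colour), so a library without reads sits at 0.1. PDF2.1 stood at 110 CPM or more in the -P+Th libraries of Col-0, N8507 and N8508 and at 9.13 to 10.3 CPM in those of N9416, ALD1 stood at 41.4 to 85.2 CPM in Col-0 -P+Th, and PAD4 and FMO1 varied least.

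Changes were tested per genotype with edgeR's quasi-likelihood F-test, with Benjamini-Hochberg adjustment over all loci, and "rose" or "fell" is used at an adjusted p under 0.05. Values written "log2" are log2 fold changes. Their standard error (SE) is the absolute log2 fold change divided by the square root of the F statistic. Such an SE is approximate for groups with few or no reads. For -P against mock, none of the 7 genes passed in Col-0, where 6.61% of all loci passed, or in N8507 (3.9% of loci). In each of these genotypes 2 of the 7 had an unadjusted p under 0.05 and DESeq2 called 0. A gene without an adjusted p from DESeq2 counts as not called. In N8508 3 genes rose (9.59% of loci changed) and in N9416 3 rose (38.1% of loci).

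For thorium on -P (-P+Th against -P), 3 of the 7 rose and 1 fell in Col-0 (25.4% of loci changed), 5 rose in N8507 (29.8%), 3 rose and 2 fell in N8508 (47.2%), and 4 fell in N9416 (40%). For thorium with nanoP (nanoP+Th against nanoP), none passed in Col-0 (0.105% of loci). There 2, ALD1 and FMO1, had an unadjusted p under 0.05 and DESeq2 called 0. DESeq2 gave ALD1 no adjusted p for thorium on -P in Col-0. Whether it gave one with nanoP was not recorded, so no conclusion on ALD1 is drawn from that 0. For nanoP+Th against nanoP, 1 fell in N8507 (4.65%), 1 rose in N8508 (16.4%), and 2 rose and 1 fell in N9416 (21.7%). For thorium on mock, 1 rose and 1 fell in N8507 (11.8% of loci), and 2 rose and 1 fell in N9416 (51.7%). A count of genes called is to be read against these shares. Green tissue markers moved with thorium on mock in N9416: 3 of 3 tested rose (median log2 6.83), and the summed level of the 9 listed went from 1.45 to 1.89 CPM per library to 8.49 to 48.4 CPM, with RBCS1B, RBCS2B and CAB3 at 0 in the treated group. In N8507 1 of 3 rose on mock, with sums of 2.51 to 3.56 and 3.46 to 21.1 CPM and RBCS1B, RBCS2B, RBCS3B and LHCB1.1 at 0 in the treated group. On -P, 1 of 3 rose with thorium in N9416. Root markers moved as well: of 10 tested, thorium on -P raised 7 and lowered 3 in N9416 (median log2 0.83), and raised 3 and lowered 3 in N8508 (-0.07). It lowered 5 in N8507 (-0.73) and 1 in Col-0 (-0.38). On mock, thorium raised 6 and lowered 1 in N9416 (0.68) and raised 1 in N8507 (0.15). The part of green tissue and root markers in the results was not tested.

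For nanoP against -P, none passed in Col-0 (6.1% of loci), where 4 had an unadjusted p under 0.05 and DESeq2 called 1, PAD3. In N8507 2 rose (4.49%), and 4 fell in N8508 (38%) and in N9416 (30.2%). For nanoP against mock, none passed in Col-0 (0.562% of loci; 3 under an unadjusted 0.05, 0 by DESeq2) or N8507 (3.05%; 2 under an unadjusted 0.05, 1 by DESeq2, ALD1). In N8508 2 fell (28.9%), and in N9416 3 fell and 2 rose (14.4%). For nanoP+Th against -P+Th, 3 fell in Col-0 (37.7%), 6 fell in N8507 (36%), 5 fell in N8508 (49.1%), and 2 fell and 1 rose in N9416 (44.8%). Of 3 tested green tissue markers, 2 fell there in N8507 (median log2 -3.58) and 2 in N9416 (-2.91), and none passed in Col-0 or N8508. Of 10 root markers, 6 rose and 2 fell in N8507, 2 rose and 3 fell in N8508, 7 fell in N9416 and 1 rose in Col-0. The part of these markers was not tested.

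**Figure D2:**
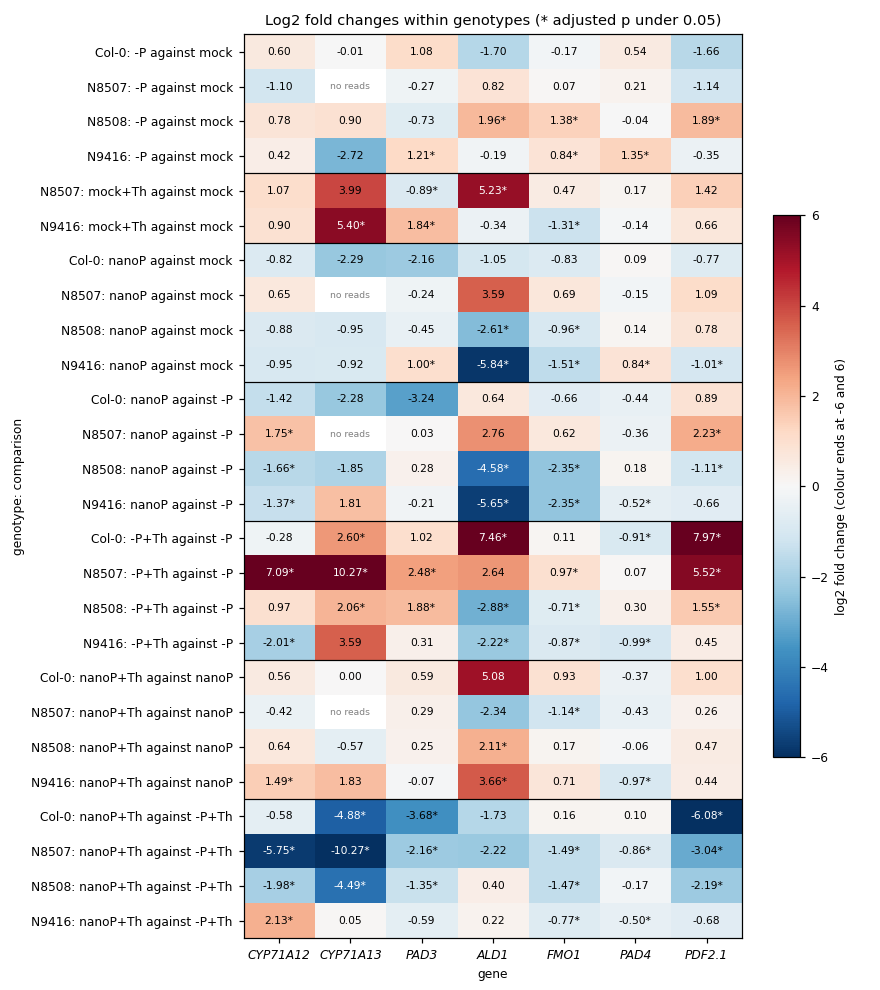
Log2 fold change of the 7 tested genes (columns) in each comparison within a genotype (rows), red for higher and blue for lower in the group named before "against", with an asterisk at an adjusted p under 0.05 (edgeR); "no reads" marks pairs of groups without reads of CYP71A13. The rows of thorium on -P hold the largest positive values, 7.97 for PDF2.1 in Col-0 and a fitted 10.27 for CYP71A13 in N8507, which had no reads on -P, and the rows of nanoP against -P hold falls of ALD1 in N8508 and N9416.

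ALD1, the entry enzyme of pipecolate synthesis, responded to thorium on -P in opposite directions in Col-0 and in N8508 and N9416. In Col-0 it had 0.511, 0.321 and 0.0724 CPM on -P and 85.2, 43.1 and 41.4 CPM on -P+Th. All Col-0 -P+Th libraries were above every other Col-0 library but replicate 3 of nanoP+Th. The rise was log2 7.46 (SE 1.15; adjusted p = 3.9e-04, edgeR), and 8.05 with only replicate 1 of -P+Th. DESeq2 gave no adjusted p for this rise.

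In N8508 ALD1 stood at 22.9, 6.33 and 13.6 CPM on -P and at 2.34, 1.65 and 1.77 CPM on -P+Th, and in N9416 at 3.31, 2.92 and 7.23 against 0.266, 1.19 and 1.29 CPM. The groups did not overlap in either line. ALD1 fell by 2.88 on the log2 scale in N8508 (SE 0.41; adjusted p = 4.4e-05, edgeR) and by 2.22 in N9416 (SE 0.67; adjusted p = 0.0145, edgeR). The fall in N9416 did not pass without -P+Th replicate 1 (log2 -1.79) or without -P replicate 3 (log2 -1.69).

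In N8507 the values were 0.27, 0 and 0.337 CPM on -P and 2.05, 1.64 and 0 CPM on -P+Th, so the groups overlapped and the difference did not pass (log2 2.64, SE 1.04; adjusted p = 0.0674, edgeR). The thorium effect on -P was lower than in Col-0 by log2 -10.36 (SE 1.17) in N8508, -9.75 (SE 1.21) in N9416 and -4.8 (SE 1.72) in N8507. Among all loci, 14.8%, 18.8% and 20.4% differed from Col-0 in this effect in N8508, N9416 and N8507. The adjusted p values of ALD1 were 4.5e-09, 7.1e-08 and 0.0398 (edgeR), and with only replicate 1 of Col-0 -P+Th the differences were -10.97, -10.32 and -5.4. That of N8507 did not pass in 6 of 12 fits that each left out 1 library (without Col-0 -P+Th replicate 1, Col-0 -P replicates 2 and 3, N8507 -P replicates 1 and 3, or N8507 -P+Th replicate 3; log2 -4.25 to -4.82). With the 4 libraries whose median effective length was under 65% of the coding length left out, its adjusted p was 0.0727, and it also did not pass with the 2 genotypes fitted alone (adjusted p = 0.0928, edgeR).

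With nanoP the ALD1 response to thorium had the other sign in the N lines of the later library numbers. In N8508 it had 0.446, 0.474 and 0.843 CPM with nanoP and 2.26, 3.29 and 2.13 CPM with nanoP+Th, a rise of log2 2.11 (SE 0.52; adjusted p = 0.0126, edgeR). In N9416 it had 0, 0.17 and 0.0706 CPM, 3 reads in all, against 1.35, 1.07 and 0.874 CPM, a rise of log2 3.66 (SE 1.2; adjusted p = 0.0377, edgeR). Treated and untreated libraries did not overlap in either line. The rise in N9416 passed in 0 of 6 fits that each left out 1 library (log2 3.14 to 4.55, adjusted p 0.0528 to 0.117). The rise in N8508 did not pass without nanoP replicate 1 (log2 1.93) or 2 (log2 1.98), and with all 66 libraries in 1 fit the adjusted p was 0.163 in N8508 and 0.0911 in N9416.

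For ALD1, the thorium effect with nanoP minus that on -P was log2 4.98 in N8508 (SE 0.65; adjusted p = 4.0e-05) and 5.87 in N9416 (SE 1.35; adjusted p = 0.00537), against -4.98 in N8507 (SE 1.45; adjusted p = 0.0189). Such a difference passed at 28.8%, 20.4% and 24% of all loci in these lines. In Col-0, where 7.72% of loci passed, it was -2.37 (SE 1.73; adjusted p = 0.414, edgeR), and ALD1 in nanoP+Th libraries was uneven, with 3.68, 1.8 and 44.9 CPM against 0.311, 0.857 and 0.27 CPM with nanoP. The 2 groups did not overlap, and the difference did not pass (log2 5.08, SE 1.07; adjusted p = 0.128, edgeR), while with all 66 libraries in 1 fit its adjusted p was 2.88e-04.

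Without thorium, ALD1 rose on -P in N8508, from 4.87, 2.44 and 3.74 CPM on mock (log2 1.96, SE 0.38; adjusted p = 0.00427), and the adjusted p was 0.101 with all 66 libraries in 1 fit. It was lower with nanoP than on -P, by log2 -4.58 (SE 0.47) in N8508 and -5.65 (SE 0.99) in N9416, and lower than on mock, by -2.61 (SE 0.5) and -5.84 (SE 0.98). In N9416 the mock values were 8.62, 6.09 and 0.772 CPM. The highest adjusted p of these 4 falls was 0.00126 (edgeR). On mock, thorium raised ALD1 in N8507 from 0.253, 0 and 0.0697 CPM to 5.77, 4.25 and 3.18 CPM (log2 5.23, SE 1.12; adjusted p = 0.00492) (1 of 3 green tissue markers rose there) and left it at 3.36, 2.73 and 5.91 CPM in N9416 (log2 -0.34, SE 0.56; adjusted p = 0.641, edgeR).

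FMO1, which acts after ALD1, fell like ALD1 with nanoP against -P and with thorium on -P in N8508 and N9416. On -P it stood at 112, 96.7 and 144 CPM in N8508 and at 176, 155 and 163 CPM in N9416, the highest group of any, against 46.9, 43 and 45.9 and 103, 104 and 70.9 CPM on mock. It rose on -P by log2 1.38 (SE 0.19; adjusted p = 2.8e-04) and 0.84 (SE 0.24; adjusted p = 0.0108, edgeR). The rise in N9416 did not pass without mock replicate 3 (log2 0.68). The response to -P of FMO1 was larger in N8508 than in Col-0 by log2 1.55 (SE 0.36; adjusted p = 0.00303), a difference that 6.45% of loci showed.

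With nanoP, FMO1 stood at 27.9, 18.8 and 22.5 CPM in N8508 and at 19.6, 46.7 and 29.5 CPM in N9416, below every -P library of the same line. The fall was log2 -2.35 in N8508 (SE 0.19; adjusted p = 3.6e-07) and -2.35 in N9416 (SE 0.25; adjusted p = 2.5e-06, edgeR). Against mock the falls were -0.96 (SE 0.19) and -1.51 (SE 0.25). FMO1 in Col-0 ranged over its libraries from 45.1 CPM (nanoP) to 143 CPM (nanoP+Th) and passed in no comparison within Col-0 (edgeR). DESeq2 also called it in none of the comparisons in which no gene passed. In Col-0, nanoP libraries (45.1, 56.2 and 58.9 CPM) were below those of -P (93.3, 95.6 and 64 CPM). They were also below those of mock (90.5, 92 and 104 CPM) and nanoP+Th. Without a call, the log2 was -0.66 (SE 0.26) against -P and -0.83 (SE 0.26) against mock. For nanoP+Th against nanoP it was 0.93 (SE 0.26). In N8507, nanoP against -P and mock gave 0.62 and 0.69, also not passing.

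Thorium on -P lowered FMO1 in N8508 (to 73.4, 69.2 and 71.2 CPM; log2 -0.71, SE 0.18; adjusted p = 0.00519) and N9416 (to 96.5, 87.7 and 77.1 CPM; log2 -0.87, SE 0.24; adjusted p = 0.00793) and raised it in N8507, from 29.1, 28.5 and 42.4 to 70.7, 58.1 and 63.9 CPM (log2 0.97, SE 0.25; adjusted p = 0.00752, edgeR). Without the libraries of low effective length, which hold 2 of those 3 N8507 libraries, the adjusted p was 0.0937. On mock, thorium lowered it in N9416 to 38.4, 27.3 and 44.4 CPM (log2 -1.31, SE 0.25; adjusted p = 2.9e-04), the comparison in which 3 of 3 green tissue markers rose. In N8507 with nanoP it fell from 60.4, 37 and 56.5 to 21.2, 24.9 and 22.5 CPM (log2 -1.14, SE 0.25; adjusted p = 0.0143, edgeR), which did not pass without nanoP+Th replicate 1 (log2 -1.11) or 3 (log2 -1.16).

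For FMO1, the thorium effect with nanoP minus that on -P was log2 -2.11 in N8507 (SE 0.36), 0.88 in N8508 (SE 0.27) and 1.58 in N9416 (SE 0.35), with adjusted p of 4.1e-04, 0.0219 and 0.00385 (edgeR). That of N8508 did not pass without -P replicate 3 (0.7), nanoP+Th replicate 1 (0.62) or nanoP replicate 2 (0.75), nor with all 66 libraries in 1 fit (adjusted p = 0.0891). With thorium, FMO1 was lower with nanoP than on -P in N8507 (log2 -1.49), N8508 (-1.47) and N9416 (-0.77); the last did not pass without nanoP+Th replicate 2 (-0.62). The thorium effect on -P was lower in N9416 than in Col-0 by -1.05 (SE 0.36; adjusted p = 0.0331), which passed in 3 of 12 fits without 1 library (those without Col-0 -P replicate 2 or Col-0 -P+Th replicate 2 or 3; otherwise log2 -0.76 to -1.1). Its adjusted p was 0.0524 without libraries of low effective length, and the difference was -1.44 with only replicate 1 of Col-0 -P+Th (edgeR).

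Among the 6 tested other genes of pipecolate metabolism and its control, thorium on -P raised 4 and lowered 1 in N8508, lowered 3 and raised 1 in N9416, raised 2 and lowered 1 in Col-0, and raised 1 and lowered 1 in N8507, beside 47.2%, 40%, 25.4% and 29.8% of all loci changed. Their median log2 was 0.49, -0.33, 0.24 and 0.41, against medians of all loci between -0.02 and 0.01. LHT1, an amino acid transporter, fell by 1.5 in N8508, 0.72 in Col-0 and 1.88 in N8507, and the fall in Col-0 did not pass with only replicate 1 of -P+Th (log2 -0.31; adjusted p = 0.212, edgeR). LHT1 was the 1 gene of this list lowered in Col-0 and in N8508. Of the genes that rose in Col-0, UGT76B1 had log2 1.37 with only replicate 1 of -P+Th. SARD4, the reductase that follows ALD1, rose in N8507 (log2 1.33), and the transcription factors SARD1 (log2 -1.38) and CBP60g (log2 -1.01) fell in N9416.

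CYP71A12, which makes indole-3-acetonitrile, rose with thorium on -P in N8507, from 2.3, 1.47 and 2.96 CPM to 279, 262 and 365 CPM. Those were the highest CYP71A12 values of all 66 libraries. The rise was log2 7.09 (SE 0.54; adjusted p = 9.1e-08) and exceeded the effect in Col-0 by log2 7.33 (SE 0.82; adjusted p = 1.7e-09, edgeR), or 6.9 with only replicate 1 of Col-0 -P+Th. In Col-0 the levels were 154, 102 and 41.1 CPM on -P and 111, 105 and 32.6 CPM on -P+Th, which overlap (log2 -0.28, SE 0.53; adjusted p = 0.729).

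In N8508 CYP71A12 had 27.8, 95 and 90.1 CPM on -P and 123, 140 and 146 CPM on -P+Th, without overlap, and the difference did not pass (log2 0.97, SE 0.47; adjusted p = 0.101, edgeR). In N9416 it fell, from 27.8, 13 and 26.7 to 5.41, 4.78 and 6.01 CPM (log2 -2.01, SE 0.46; adjusted p = 0.00227). With nanoP, thorium raised it in N9416 from 4.55, 12.5 and 8.83 to 11.1, 25.4 and 35.1 CPM, with overlapping groups (log2 1.49, SE 0.44; adjusted p = 0.0218, edgeR). That rise passed in 2 of the 6 leave-one-out fits and did not pass without nanoP+Th replicate 2 or 3 or nanoP replicate 1 or 3 (log2 1.1 to 1.51), nor with all 66 libraries in 1 fit (adjusted p = 0.0851).

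The thorium effect on CYP71A12 with nanoP minus that on -P was therefore negative in N8507 (log2 -7.5, SE 0.67; adjusted p = 1.2e-06) and positive in N9416 (3.5, SE 0.64; adjusted p = 9.9e-04, edgeR). With thorium, nanoP was lower than -P in N8507 (9.9, 2.63 and 4.22 CPM; log2 -5.75, SE 0.5) and in N8508 (61.1, 28.2 and 15.4 CPM; log2 -1.98, SE 0.48) and higher in N9416 (log2 2.13, SE 0.46), with a highest adjusted p of 0.00326 (edgeR). Without thorium, nanoP against -P gave log2 1.75 in N8507, -1.66 in N8508 and -1.37 in N9416 (adjusted p = 0.0408, 0.015 and 0.025). In N8507 that rise passed in 1 of the 6 leave-one-out fits, the fit without nanoP replicate 2 (otherwise 1.38 to 2). In N8508 the fall did not pass without -P replicate 2 or 3 or nanoP replicate 2 (-1.3 to -1.43), and in N9416 not without -P replicate 1 or 3 or nanoP replicate 1 or 3 (-1.07 to -1.39). With all 66 libraries in 1 fit the adjusted p was 0.0663 in N8507 and 0.0791 in N9416, and without libraries of low effective length it was 0.0682 in N8507.

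CYP71A13, the closest relative of CYP71A12 among the 8 genes, had low levels outside a few thorium groups and was at 0 in 25 of 66 libraries. In Col-0 it rose from 3.26, 1.99 and 0.724 CPM on -P to 16.2, 16.4 and 4.26 CPM on -P+Th (log2 2.6, SE 0.78; adjusted p = 0.0264, edgeR; 3 with only replicate 1 of -P+Th). This call did not pass without -P+Th replicate 1 or 2 or without -P replicate 2 or 3 (log2 2.2 to 2.59). In N8508 it rose from 0.201, 1.07 and 0.255 to 2.08, 2.1 and 2.01 CPM (log2 2.06, SE 0.62; adjusted p = 0.0126), which did not pass without -P replicate 1 (1.69) or 3 (1.7) or with all 66 libraries in 1 fit (adjusted p = 0.0558).

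In N8507, CYP71A13 had no reads on -P and 8.53, 9.38 and 13.2 CPM on -P+Th. Set against the level that 3 reads over the -P group would give, 0.0672 CPM, it was at least 7.27 higher on the log2 scale (adjusted p = 1.5e-04, edgeR). With nanoP+Th it again had no reads and was lower than on -P+Th by a log2 of -7.39 or more on that scale. The thorium effect on -P exceeded that in Col-0 by a fitted log2 of 7.5 (SE 1.71; adjusted p = 0.0012), or 7.1 with only replicate 1 of Col-0 -P+Th, and this fitted value depends on how the fit treats the group without reads.

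In N9416, CYP71A13 rose with thorium on mock, from 0.0862, 0 and 0.0857 CPM (2 reads in all) to 1.17, 5.82 and 1.7 CPM (log2 5.4, SE 0.95; adjusted p = 2.3e-04, edgeR). In the same comparison 3 of 3 green tissue markers rose. On -P+Th it held 4 reads in all in N9416, against 0 on -P, and did not pass (adjusted p = 0.213). With thorium, it was lower with nanoP than on -P in Col-0 (log2 -4.88, SE 0.92; adjusted p = 0.00103; -5.28 with only replicate 1 of -P+Th) and N8508 (log2 -4.49, SE 0.8; adjusted p = 2.7e-04, edgeR). In Col-0 the nanoP+Th values were 0.623, 0.56 and 0 CPM.

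PAD3, the last enzyme of camalexin synthesis, rose with thorium on -P in N8507 and N8508. It went from 12.4, 14.7 and 16.1 to 79.4, 74.9 and 83.7 CPM in N8507 (log2 2.48, SE 0.23; adjusted p = 9.7e-07) and from 13.4, 17.1 and 35.1 to 85.4, 83.8 and 70.9 CPM in N8508 (log2 1.88, SE 0.33; adjusted p = 2.9e-04, edgeR). The groups did not overlap. In Col-0 (11.1, 2.18 and 2.1 against 10.8, 16.2 and 4.87 CPM) and N9416 (29.9, 22.2 and 20.5 against 14.9, 29 and 42.7 CPM) they overlapped and did not pass. The effect did not differ from that of Col-0 by the test in N8507 (log2 1.42, SE 0.65; adjusted p = 0.119, edgeR) or N8508 (0.83, SE 0.65; adjusted p = 0.423).

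With nanoP, thorium changed PAD3 in none of the 4 genotypes by the test, with log2 values between -0.07 and 0.59. The effect with nanoP minus that on -P was log2 -2.19 in N8507 (SE 0.32; adjusted p = 1.2e-04) and -1.63 in N8508 (SE 0.46; adjusted p = 0.0147, edgeR), and the latter had an adjusted p of 0.0631 with all 66 libraries in 1 fit. With thorium, PAD3 was lower with nanoP than on -P in Col-0 (log2 -3.68; -3.71 with only replicate 1 of -P+Th), N8507 (-2.16) and N8508 (-1.35), with a highest adjusted p of 0.0069. On mock, thorium raised it in N9416 from 11.9, 9.66 and 9.86 to 23.9, 52.4 and 35 CPM (log2 1.84, SE 0.31; adjusted p = 1.0e-04), where 3 of 3 green tissue markers also rose, and lowered it in N8507 from 14.3, 12.6 and 24.8 to 9.49, 10.3 and 8.05 CPM (log2 -0.89, SE 0.23; adjusted p = 0.017, edgeR). The fall in N8507 did not pass without mock+Th replicate 1 (-0.9) or 3 (-0.8) or mock replicate 3 (-0.53), nor with all 66 libraries in 1 fit (adjusted p = 0.155).

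PAD3 in N9416 was also higher on -P than on mock, by log2 1.21 (SE 0.31, adjusted p = 0.0061, edgeR). With all 66 libraries in 1 fit that adjusted p was 0.0554. With nanoP, PAD3 was higher than on mock by log2 1 (SE 0.31, adjusted p = 0.041, edgeR). The nanoP difference passed in 1 of the 6 leave-one-out fits, the fit without nanoP replicate 1 (otherwise 0.87 to 1.1). It had an adjusted p of 0.0517 without libraries of low effective length and 0.283 with all 66 libraries in 1 fit.

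The other genes of camalexin and indole phytoalexin synthesis, control and export changed in both directions with thorium on -P in the lines: 8 rose and 2 fell of 16 tested in N8507 (median log2 0.77), 4 rose and none fell of 15 in Col-0 (median -0.16), 7 rose and 5 fell of 16 in N8508 (0.32), and 5 rose and 4 fell of 16 in N9416 (-0.1), beside medians of all loci between -0.02 and 0.01. Of all loci 29.8%, 25.4%, 47.2% and 40% changed in these genotypes. With only replicate 1 of Col-0 -P+Th, 6 rose and 3 fell of the 15 (median -0.31), beside 45.3% of all loci. The largest rises were those of CYP82C2 (adjusted p = 1.8e-04, edgeR) and the transporter gene ABCG40 (log2 9.62, SE 1.48) in N8507, of ABCG40 (5.78, SE 0.61) and GSTU4 (3.46, SE 0.35) in N8508, and of JUB1 (2.12, SE 0.4; 2.63 with only replicate 1) in Col-0. In N9416 the glutathione transferase GSTF6 rose (1.17, SE 0.21) and WRKY33, a regulator of camalexin genes, fell (log2 -1.11, SE 0.2).

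PAD4 stood above 71 CPM in all 66 libraries, and its highest values were those of N9416 on -P (487, 501 and 521 CPM, against 194, 204 and 194 CPM on mock). That rise was log2 1.35 (SE 0.17; adjusted p = 9.5e-06, edgeR). With nanoP in N9416 it had 278, 355 and 406 CPM, above mock (log2 0.84, SE 0.17; adjusted p = 0.00239) and below -P (log2 -0.52, SE 0.16; adjusted p = 0.0244). The difference from -P did not pass without -P replicate 2 (-0.52) or 3 (-0.49), without nanoP replicate 1 (-0.38), or with all 66 libraries in 1 fit (adjusted p = 0.0595).

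Thorium lowered PAD4 in N9416 on -P to 195, 261 and 277 CPM (log2 -0.99, SE 0.17; adjusted p = 1.6e-04) and with nanoP to 131, 172 and 223 CPM (log2 -0.97, SE 0.17; adjusted p = 5.4e-04, edgeR), both without overlap. In Col-0 it fell from 122, 207 and 253 CPM on -P to 107, 106 and 103 CPM on -P+Th (log2 -0.91, SE 0.23; adjusted p = 0.0109), and with only replicate 1 of -P+Th the adjusted p was 0.0616. The effect in N8508 exceeded that in Col-0 by log2 1.16 (SE 0.28; adjusted p = 0.00281; 1.12 with only replicate 1 of Col-0 -P+Th). The excess in N8507 was 0.93 (SE 0.28; adjusted p = 0.0133, edgeR) and did not pass with only that replicate (adjusted p = 0.0556), without Col-0 -P replicate 3 (0.71) or N8507 -P+Th replicate 3 (0.7), without libraries of low effective length (adjusted p = 0.199) or with the 2 genotypes fitted alone (0.0659).

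With thorium, PAD4 was lower with nanoP than on -P in N8507 (log2 -0.86, SE 0.22; adjusted p = 0.00603, and 0.0912 without libraries of low effective length). In N9416 it was lower by log2 -0.5 (SE 0.17; adjusted p = 0.0206, edgeR), with overlapping groups. The difference in N9416 did not pass without -P+Th replicate 2 or 3 or nanoP+Th replicate 1 or 2 (-0.33 to -0.48), and its adjusted p was 0.0689 without libraries of low effective length and 0.0663 with all 66 libraries in 1 fit.

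Of the 21 other tested genes of the EDS1-PAD4 module and salicylate signalling, thorium on -P raised 5 and lowered 2 in Col-0, raised 9 in N8507, raised 8 and lowered 4 in N8508, and lowered 10 in N9416, with medians of log2 0.18, 0.2, -0.02 and -0.48. Beside these stand 25.4%, 29.8%, 47.2% and 40% of all loci changed. With only replicate 1 of Col-0 -P+Th the Col-0 median was 0.01. NIMIN1 and WRKY38, both induced by salicylate, had the largest rises in Col-0 (3.67, SE 0.77, and 3.37, SE 0.58; 4.17 and 3.36 with only replicate 1), N8507 (5.02, SE 0.77, and 6.15, SE 0.85) and N8508 (2.77, SE 0.21, and 2.68, SE 0.4). In N9416 the largest falls were those of WRKY54 (-1.18, SE 0.2) and TGA3 (-1.09, SE 0.09).

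Salicylate synthesis and turnover genes differed between the media in N8508 and N9416. With nanoP against -P, 10 of 12 fell in N8508 (median log2 -1.39) and 8 of 11 in N9416 (median -1.22), beside medians of all loci of -0.01 and 0.03 and the 38% and 30.2% of loci that changed. In N8508, ICS1, the isochorismate synthase that supplies most pathogen-induced salicylate, fell by 3.54 (SE 0.18), and PBS3, which conjugates isochorismate to glutamate, fell by 3.4 (SE 0.18). On -P against mock, ICS1 rose in N8507 (log2 1.46, SE 0.2), N8508 (1.86, SE 0.17) and N9416 (2.07, SE 0.17). With thorium on -P, 2 rose and 4 fell of 11 in Col-0, 6 rose and 2 fell of 12 in N8507, 4 rose and 5 fell of 12 in N8508, and 1 rose and 5 fell of 11 in N9416, beside 25.4%, 29.8%, 47.2% and 40% of all loci. The Col-0 median was log2 0.08, and 0.03 over 13 tested genes with only replicate 1 of Col-0 -P+Th. PBS3 rose in Col-0 (log2 4.1, SE 0.58; 4.31 with only replicate 1) and N8507 (4.58, SE 0.4), and ICS1 fell in N8508 (-2.05, SE 0.17) and N9416 (-1.74, SE 0.17).

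PR1 had 5 reads in all, in 2 of 66 libraries, and passed no filter on low counts. A count of 0 in a group allows 3 reads over that group, which is 0.062 to 0.0967 CPM by group, a limit for counting error only. The highest library, N8507 -P+Th replicate 1, had 0.264 CPM, while the other libraries of that group had none. Other genes of the salicylate-responsive list were detected. With thorium on -P, 3 of 4 tested rose in N8507 (median log2 4.29), among them SAG13 (8.12, SE 1.57) and PNP-A (3.38, SE 0.46). In Col-0 1 of 4 rose (median 1.3, and 1.77 over 5 tested with only replicate 1 of -P+Th). In N8508 2 rose and 2 fell of 5, and 1 of 5 fell in N9416. Of all loci 29.8%, 25.4%, 47.2% and 40% changed with thorium on -P in N8507, Col-0, N8508 and N9416. On mock with thorium in N9416, 3 of 5 tested genes of this list rose and 1 fell, beside 51.7% of all loci. PR2 (log2 3.24, SE 0.92) and PR5 (2.6, SE 0.99) rose there, as did 3 of 3 green tissue markers.

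PDF2.1 had the largest thorium response on -P among the 7 genes in Col-0. It had 0.128, 0.705 and 1.52 CPM on -P and 284, 110 and 195 CPM on -P+Th, a rise of log2 7.97 (SE 0.68; adjusted p = 3.1e-06, edgeR), and of 8.51 with only replicate 1 of -P+Th. In N8507 it went from 14.3, 12.1 and 10.4 to 297, 446 and 935 CPM (log2 5.52, SE 0.62; adjusted p = 5.6e-06), and in N8508 from 65.5, 36.7 and 26.8 to 140, 119 and 114 CPM (log2 1.55, SE 0.29; adjusted p = 5.6e-04). In these 3 genotypes the treated and untreated libraries did not overlap.

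In N9416 PDF2.1 stood at 7.83, 7.54 and 7.15 CPM on -P and at 9.13, 10.3 and 10.3 CPM on -P+Th, and the difference did not pass (log2 0.45, SE 0.29; adjusted p = 0.225, edgeR). The thorium effect was smaller than in Col-0 by log2 -7.59 (SE 0.79) in N9416, -6.46 (SE 0.75) in N8508 and -2.48 (SE 0.76) in N8507, with adjusted p of 9.9e-10, 9.4e-09 and 0.0151 (edgeR). With only replicate 1 of Col-0 -P+Th these were -8.11, -7 and -3.01. That of N8507 did not pass without Col-0 -P+Th replicate 1 (-2.09), without Col-0 -P replicate 1 (-1.94), or with the 2 genotypes fitted alone (adjusted p = 0.0694).

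With nanoP the thorium response of PDF2.1 did not pass in any genotype, with log2 between 0.26 and 1. Col-0 had 0.311, 2.44 and 1.42 CPM with nanoP and 1.75, 2.05 and 4.82 CPM with nanoP+Th. The effect with nanoP minus that on -P was log2 -6.97 in Col-0 (SE 0.94; adjusted p = 3.8e-04; -7.52 with only replicate 1 of -P+Th) and -5.27 in N8507 (SE 0.77; adjusted p = 1.2e-04, edgeR). In N8508 it was -1.08 (SE 0.42; adjusted p = 0.0699) and in N9416 -0.02 (SE 0.43; adjusted p = 0.983). With thorium, PDF2.1 was lower with nanoP than on -P in Col-0 (log2 -6.08; -6.63 with only replicate 1 of -P+Th), N8507 (-3.04) and N8508 (-2.19), with a highest adjusted p of 3.7e-04.

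**Figure D3:**
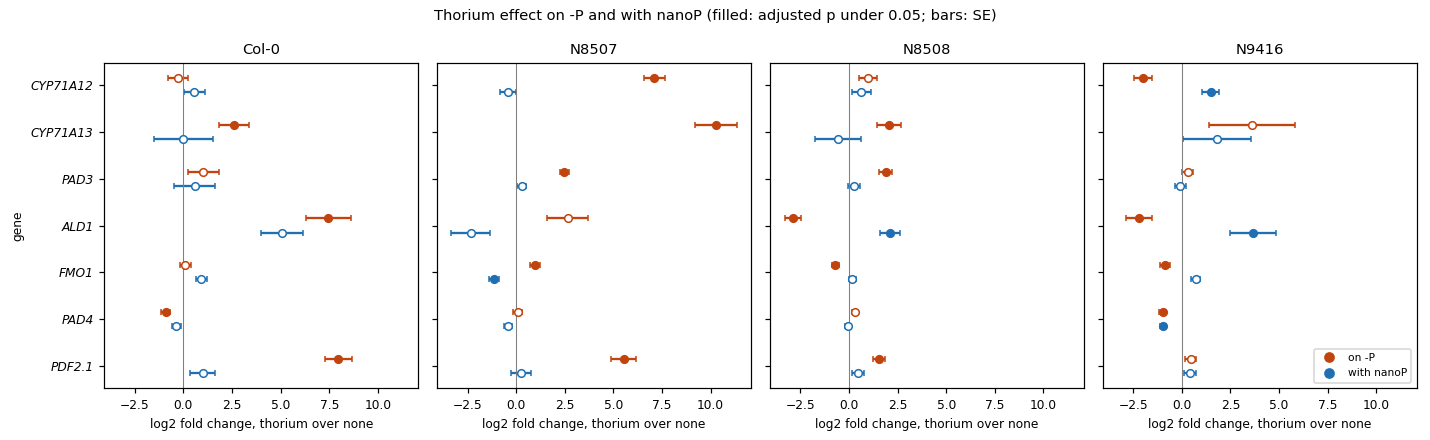
Log2 fold change of thorium over no thorium for the 7 tested genes (y axis) on -P (red) and with nanoP (blue), 1 panel per genotype, with bars of 1 SE and filled points at an adjusted p under 0.05 (edgeR). Of PDF2.1, the red points lie at 7.97 in Col-0 and 5.52 in N8507 and the blue points at 1 and 0.26, while for ALD1 in N8508 and N9416 the red points lie below 0 and the blue points above.

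Without thorium, PDF2.1 rose on -P in N8508 from 11.7, 11 and 12.2 CPM on mock (log2 1.89, SE 0.32; adjusted p = 0.00164), a larger response than in Col-0 by log2 3.55 (SE 0.82; adjusted p = 0.00277, edgeR). It fell with nanoP against -P in N8508 (log2 -1.11, SE 0.3; adjusted p = 0.00962; -0.66 and no call without -P replicate 1, adjusted p = 0.0627 with all 66 libraries in 1 fit). In N8507 it rose with nanoP (44.3, 36 and 93.1 CPM; log2 2.23, SE 0.54; adjusted p = 0.0241), which passed in 2 of the 6 leave-one-out fits, not without any -P replicate or nanoP replicate 3 (1.73 to 2.35). In N9416 it was lower with nanoP than on mock (log2 -1.01, SE 0.3; adjusted p = 0.0311, edgeR), which passed in 2 of 6 such fits, not without mock replicate 1 or 2 or nanoP replicate 2 or 3 (-0.7 to -1.04), and had an adjusted p of 0.313 with all 66 libraries in 1 fit.

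Of the 4 other defensin genes tested, thorium on -P raised PDF2.2 (log2 2.97, SE 0.32) and PDF2.5 (1.49, SE 0.28) in Col-0, with 3.55 and 1.51 from only replicate 1 of -P+Th. None of the 4 passed in N8507 by edgeR, 1 rose and 1 fell in N8508, and 3 rose and 1 fell in N9416, where PDF1.1 rose (4.32, SE 0.59) and PDF2.2 fell (log2 -1.88, SE 0.14). Medians of these genes on the log2 scale were 0.96 (Col-0), 1 (N8507), 0.49 (N8508) and 1.29 (N9416). For pattern-triggered immunity, 8 of 14 rose and 2 fell in N8507, 2 rose and 3 fell in Col-0, 6 rose and 3 fell in N8508, and 1 rose and 8 fell in N9416. For jasmonate and ethylene defence, 6 of 8 rose in N8507, 1 of 7 rose in Col-0, 4 rose and 3 fell of 8 in N8508, and 1 rose and 4 fell of 8 in N9416. The share of all loci that changed was 29.8% (N8507), 25.4% (Col-0), 47.2% (N8508) and 40% (N9416). In Col-0 the median log2 was -0.21 for the pattern-triggered genes and 0.49 for the jasmonate and ethylene genes. With only replicate 1 of Col-0 -P+Th these medians were -0.46 and 0.75, the latter over 8 tested genes.

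On mock, the genes differed between the lines and Col-0 before any treatment. In a fit of all 66 libraries, 6 of 7 passed in N8507 (36.1% of loci differed), 4 in N8508 (27.2%) and 6 in N9416 (31.8%). Green tissue markers also differed: of 4 tested, 3 were lower than in Col-0 in N8507 (median log2 -5.79), 3 in N9416 (-6.17) and 1 in N8508 (0.47). Their summed level on mock was 0.535 to 52.2 CPM in Col-0, 2.51 to 3.56 in N8507, 1.54 to 50.1 in N8508 and 1.45 to 1.89 in N9416. The part of these markers in the differences on mock was not tested. PAD3 was higher than in Col-0 in each line: Col-0 had 4.31, 0.204 and 2.81 CPM, and the lowest library of the lines had 9.66 CPM, with log2 differences of 2.8 (SE 0.51) in N8507, 3.89 (SE 0.52) in N8508 and 2.08 (SE 0.52) in N9416. PDF2.1 was higher in each line too, by 3.45 (SE 0.52), 2.25 (SE 0.53) and 1.96 (SE 0.53), with Col-0 at 2.87, 2.85 and 1.61 CPM. The highest adjusted p among these 6 differences was 0.00338 (edgeR).

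CYP71A13 was lower in each line. Col-0 had 3.37, 1.36 and 1.34 CPM, N8507 had no reads, which bounds its log2 difference at -4.93 or below, and the log2 difference was -2.92 in N8508 (SE 0.89; adjusted p = 0.0109) and -4.89 in N9416 (SE 1.13; adjusted p = 7.9e-04, edgeR). That of N8508 did not pass without Col-0 mock replicate 1 (-2.33) or N8508 mock replicate 3 (-2.59). CYP71A12 was lower in N8507 (4.8, 2.77 and 6.76 against 99, 45.2 and 54 CPM; log2 -3.79, SE 0.58) and N9416 (13.5, 11.3 and 25.5 CPM; log2 -1.97, SE 0.53). FMO1 was lower in N8507 (log2 -1.6, SE 0.26) and N8508 (log2 -1.07, SE 0.26).

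ALD1 was lower in N8507 (log2 -3.12, SE 1.21; adjusted p = 0.0386) and higher in N9416 (2.32, SE 0.77; adjusted p = 0.0168, edgeR), where the groups overlapped. The difference in N8507 passed in 1 of the 6 leave-one-out fits, the fit without its replicate 1 (otherwise -2.55 to -3.22), and not with the 2 genotypes fitted alone (adjusted p = 0.0839). That in N9416 did not pass without Col-0 mock replicate 2 (2.22) or N9416 mock replicate 1 (1.73). PAD4 was higher in N9416 by log2 0.55 (SE 0.2; adjusted p = 0.0289, edgeR), which did not pass without Col-0 mock replicate 1 (0.53) or 2 (0.52) or N9416 mock replicate 2 (0.53). Responses to -P differed from Col-0 at 5.54% of loci in N8507, 6.45% in N8508 and 7.15% in N9416. None of the 7 genes passed in N8507 (1 under an unadjusted 0.05, 0 by DESeq2) or N9416 (2 under an unadjusted 0.05, 1 by DESeq2, PAD4).

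Over the 22 group means of log2 CPM, the loci whose levels ran most like each gene were sought among 18000 loci. The points share libraries, groups and depth, so these values only describe. ALD1 was most like AT4G10500 (Pearson's r 0.729), the locus AT2G43570, annotated as CHI (0.709), and AT3G45160 (0.705). FMO1 was most like CCoAOMT1 (0.859), and PAD3 like AT5G64980 (0.946) and AT2G21860 (0.938). PAD4 was most like WRKY33 (0.934), CYP71A12 like AT5G51920 (0.924) and GSTL3 (0.92), CYP71A13 like AT3G12910 (0.915) and GSTF6 (0.892), and PDF2.1 like PDLP1 (0.9) and FP6 (0.895).

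Among the 7 genes themselves, CYP71A12 and CYP71A13 were the most alike (r 0.807), followed by PDF2.1 and PAD3 (0.652) and by ALD1 and FMO1 (0.523). PAD3, which acts after the CYP71A enzymes, had r of -0.023 with CYP71A12 and 0.035 with CYP71A13. PAD4 had r of -0.107 with ALD1 and 0.302 with FMO1.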

How the data were processed

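Root RNA was sequenced in 66 libraries made with the NEBNext Ultra II Directional kit, per the labels' protocols. Per the submitters' processing notes, Trimmomatic and Salmon 1.3.0 were used with TAIR10; the order of steps is not given in the sources used here. The deposited files hold Salmon's estimated counts and TPM values, as made by the authors for 32875 transcript models, of which 99.99% have lengths that are multiples of 3, so lengths are coding lengths. Estimated counts were summed per locus (27313 loci) and rounded.

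Each genotype was fitted with edgeR 4.0.16 (R 4.3.3; TMM, filterByExpr by group, quasi-likelihood F-test), with Benjamini-Hochberg adjustment over all loci tested and a threshold of 0.05; comparisons between genotypes used all 66 libraries. Every p in the text comes from these fits unless DESeq2 1.42.0 is named. Simulated counts were used only for Col-0 -P against mock, with the same spread at every locus. No changes were simulated at loci with few reads, in the other fits or in differences between effects. Alternatives were DESeq2, RLE scaling, no filter, other sets of libraries and leaving out each library. A floor of 3 reads over a group bounds folds against groups without reads. The floor covers counting error only. The SE rests on the spread between the libraries, as the p-values do.

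The 8 genes and the gene lists were chosen with earlier results of these data known. All 8 were to be named in every comparison, with at most the 2 largest passing changes of each other list, and the 3 loci most alike per gene. Sequences come from RefSeq TAIR10.1, and no coordinates were converted.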

Additional observations from a re-analysis of the deposited data

Results flagged for a closer look

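Effects that differed between groups by a test of the difference itself (edgeR, adjusted p under 0.05) are listed here, on the log2 scale. The thorium effect with nanoP minus that on -P was -6.97 for PDF2.1 in Col-0. In N8507 it was -4.98 for ALD1, -2.11 for FMO1, -2.19 for PAD3, -7.5 for CYP71A12 and -5.27 for PDF2.1. In N8508 it was 4.98 for ALD1, 0.88 for FMO1 and -1.63 for PAD3. In N9416 it was 5.87 for ALD1, 1.58 for FMO1 and 3.5 for CYP71A12.

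The response to -P in N8508 minus that in Col-0 was 1.55 for FMO1 and 3.55 for PDF2.1. The thorium effect on -P in N8507 minus that in Col-0 was -4.8 for ALD1, 0.93 for PAD4, 7.33 for CYP71A12, 7.5 for CYP71A13 and -2.48 for PDF2.1. In N8508 this difference was -10.36 for ALD1, 1.16 for PAD4 and -6.46 for PDF2.1. In N9416 it was -9.75 for ALD1, -1.05 for FMO1 and -7.59 for PDF2.1. The differences from Col-0 in thorium effect share the Col-0 libraries.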

How the results depend on the processing

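The genes had 109 calls over the 39 comparisons. Of these, 81 passed in every fit without 1 library and 85 under every other setting that gave an adjusted p. Under all of these 75 passed, and 0 reversed. DESeq2 kept the 108 calls to which it gave an adjusted p. It gave none to the rise of ALD1 with thorium on -P in Col-0, so DESeq2 did not check that call. RLE scaling kept 109 of 109 and no filter 109 of 109, and fitting all 66 libraries together ended 16 of 80. Over the genotypes, 5 calls for nanoP+Th against nanoP became 3 with all 66 libraries in 1 fit, of which 2 were kept, 3 lost and 1 (ALD1 in Col-0) gained (3 to 5 without 1 library). The 2 differences from Col-0 in the response to -P became 4 with DESeq2 and 4 without libraries of low effective length (2 to 4 without 1 library). Using only replicate 1 of Col-0 -P+Th was chosen after seeing the data and ended 2 of 19 calls. Counts over all loci moved by over 1.5 times in 45 of 236 other settings and 37 of 294 fits without 1 library, such as Col-0 nanoP+Th against nanoP, from 21 to 146 with DESeq2, 107 with all libraries and 135 without Col-0 -P+Th. The cause was not tested. No paired analysis was possible because the labels give no replicate numbers that link samples across groups. Depth limits CYP71A13 and PR1, which had no reads in 25 and 64 of 66 libraries.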
